A study of Mus musculus with 16 samples.

Results

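The genes described here are 40 antiviral interferon-stimulated genes of the mouse, grouped by what their products do in the interferon response; the IFIT, OAS, GBP, IRF and STAT families were not among them. A gene was taken by its symbol in the platform annotation of the array, and a gene with several probe sets would have been taken at the one of highest mean over the 16 arrays, but every gene that was tested had 1. Of the 40, 38 were tested, among 15908 genes in all. The only probe set annotated to Isg15 also carries the symbol Gm9706, so no value of it is given here, and Ifi44 was not analysed here. All 38 lay above the 30th percentile of the array in each of the 16 arrays, so none of them entered the test through the LPS-treated livers alone.

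RNA of whole mouse liver was measured on 16 whole-transcript arrays, 4 in each of 4 groups. The groups were male S534A mice given 1 mg/kg lipopolysaccharide (LPS), male wild-type (WT) C57Bl6/J mice given the same dose, male untreated S534A mice and male untreated WT mice. S534A mice are a germline knock-in in which a serine codon of the gene for p65, the NF-kB subunit also called RelA, was changed to one for alanine in PTL1 embryonic stem cells. The selection cassette was removed with FLPe, and the line was bred to homozygosity after backcrosses to C57Bl6/J, so every cell type carries the substitution. The study asked how that substitution changes the response of the liver to LPS, a bacterial cell wall component sensed by Toll-like receptor 4. No group is labelled as given vehicle, the age of the mice and the time between LPS and collection are not stated in the labels, and the series text names the LPS dose also for the untreated S534A group, whose sample titles call it untreated and were followed. Whether the 4 samples of a group are 4 mice is not stated, so the p-values speak only for the spread between these samples, part of which may be technical.

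Deposited log2 values ran from 3.49 to 14.54, with array medians of 6.25 to 6.42, and the lowest correlation between any 2 arrays over all probe sets was 0.950. In a clock score, the log2 value of Arntl taken from the mean over Tef, Dbp and the 3 Per genes, the untreated S534A arrays stood at 3.33, 3.41, -2.55 and 0.96 and the untreated WT arrays at -1.70, 3.43, -1.77 and 3.47. Untreated S534A array 3 and WT arrays 1 and 3 thus stood apart, and the genotype results of lowest p that use untreated arrays are also given without them.

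Type I interferons bind a receptor that activates the kinases Jak1 and Tyk2 and, through them, a complex that holds Stat2 and Irf9 and binds the interferon-stimulated response element (ISRE) in the promoters of many genes. In mouse liver LPS engages Toll-like receptor 4 on Kupffer cells, endothelium and hepatocytes, and its TRIF branch leads through Irf3 to interferon beta, while the MyD88 branch leads mainly to NF-kB. The products of the genes described here detect viral RNA, attach or remove the ubiquitin-like modifier ISG15, degrade or starve viral genomes, or tune the signalling itself.

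The promoters are shown first, since the ISRE is the letter sequence through which these genes are best known to be induced. RefSeq promoter windows (GRCm38.p6, 250 bases before to 50 after a start site) were found for 29 of the 38 genes. None was found for Usp18, Dhx58, Mx1, Mx2, Rtp4, Parp9, Parp10, Parp14 and Tor3a. The motif results therefore leave out Mx1 and Mx2, which rose most after LPS in both genotypes. An ISRE-type motif (GAAA, then NN, then GAAA, on either strand) lay in a window of 9 of these 29 (31%), and in a window of 3.99% of all 27025 genes with a window. It was found in 3.44% of all 32851 windows of that length. Upstream stretches of 150 bases that end just before the start site are shown for the 4 genes with a match before it: Rsad2, Ddx60 and Trim30a, which rose strongly after LPS, and Bst2, which rose least. Capitals mark the ISRE-type matches, and each line runs 5′ to 3′ on the strand of the gene.
Rsad2, chr12:26456453-26456602 (- strand): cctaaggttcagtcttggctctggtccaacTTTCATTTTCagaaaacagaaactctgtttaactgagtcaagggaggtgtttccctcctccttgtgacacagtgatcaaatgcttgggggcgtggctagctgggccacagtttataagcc
Ddx60, chr8:61927937-61928086 (+ strand): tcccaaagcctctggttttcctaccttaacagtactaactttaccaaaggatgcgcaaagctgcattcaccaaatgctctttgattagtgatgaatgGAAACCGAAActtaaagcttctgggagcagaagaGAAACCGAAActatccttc
Trim30a, chr7:104465194-104465343 (- strand): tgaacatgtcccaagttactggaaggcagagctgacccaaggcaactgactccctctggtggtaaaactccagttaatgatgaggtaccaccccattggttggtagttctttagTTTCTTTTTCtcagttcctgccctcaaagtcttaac
Bst2, chr8:71537473-71537622 (- strand): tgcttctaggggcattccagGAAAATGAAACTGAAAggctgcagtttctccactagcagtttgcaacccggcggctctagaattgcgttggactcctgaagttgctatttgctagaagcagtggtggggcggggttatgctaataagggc
In Ddx60 both matches have the same letters and stand apart, and in Bst2 the pair overlaps. In 4 other genes the matches lay after the start site, and these are shown as sites with up to 10 bases on either side to compare their letters.
Trim21, chr7:102565447-102565476 (- strand): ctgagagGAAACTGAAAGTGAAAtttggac
Eif2ak2, chr17:78882535-78882564 (- strand): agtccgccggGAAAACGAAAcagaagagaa
Ifih1, chr2:62646206-62646233 (- strand): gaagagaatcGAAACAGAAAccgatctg
Ddx58, chr4:40239804-40239833 (- strand): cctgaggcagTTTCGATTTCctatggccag
In Trim21 an overlapping pair again made a run of repeated half-sites. The remaining gene with a match was Trim34a, also after the start site. A kB-type motif (GGGA, then NN, then TTCC), of the class that p65 binds, was found in 1 of the 29 genes (3.45%), in a window of 1.63% of all genes and in 1.47% of all windows. That gene was Isg20, an exonuclease that degrades viral RNA, and its upstream stretch is shown because it alone carried this match.
Isg20, chr7:78913615-78913764 (+ strand): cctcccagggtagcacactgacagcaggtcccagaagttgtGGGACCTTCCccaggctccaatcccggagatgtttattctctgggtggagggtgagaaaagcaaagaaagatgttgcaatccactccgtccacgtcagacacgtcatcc
A GAS-type motif, the gamma-activated sequence of interferon-induced promoters (TTC, then NNN, then GAA), lay in 6 of the 29 (20.7%), in a window of 9.55% of all genes and in 8.3% of all windows, and in Bst2 its match overlapped an ISRE-type match. A match is a description of letters in this window and not of a binding site. The genes with an ISRE-type match rose after LPS by a median of 2.91 in S534A livers and 2.93 in WT livers on the log2 scale, and the 20 genes with a window but no match by 2.37 in S534A and 2.29 in WT. In WT livers the change ran from 0.79 to 5.70 with a match and from 1.10 to 5.17 without one, so the ranges overlapped over most of their length.

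**Figure D1:**
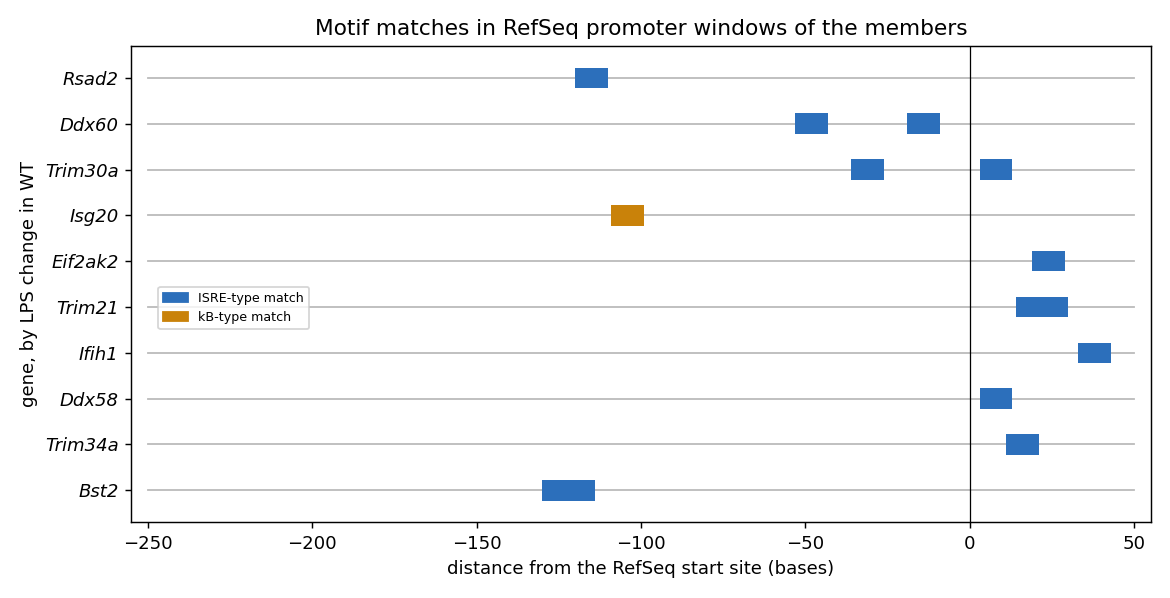
Positions of ISRE-type and kB-type matches (bars of 10 bases) in the RefSeq promoter windows of the 10 tested genes that hold one, on a horizontal axis of bases from the start site, with genes ordered down the page by their LPS change in WT livers. Matches of Trim30a come from 2 windows drawn on one line. Rsad2 and Ddx60 stand at the top and Bst2, with 2 overlapping matches, at the bottom.

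After LPS all 38 tested genes rose in S534A livers and all 38 rose in WT livers. The highest limma adjusted p among them was 4.65e-07 in S534A and 8.15e-06 in WT, both belonging to Bst2. Of all 15908 genes, 14.2% were called higher after LPS in S534A and 14.9% in WT. The median rise was 2.93 in S534A and 2.88 in WT, while the median change of all genes was -0.03 in S534A and -0.05 in WT. Here and below a change is a log2 difference of group means with its standard error from the limma fit (n = 4 arrays per group), and a value is a deposited log2 expression value. At least 2-fold rises numbered 38 in S534A and 37 in WT, where 4.27% of all genes passed that bound in S534A and 4.48% in WT, and the exception was Bst2 in WT. For all 38 genes the lowest LPS-treated array lay above the highest untreated array of the same genotype, which held for 16.4% of all genes in S534A and 12.7% in WT. Mx1, Mx2 and Rsad2 ranked 3, 6 and 7 among the rises of all genes in S534A livers, and 2, 4 and 5 in WT livers. Of the 100 largest rises 20 were members of the set in S534A and 16 in WT. In whole liver, more RNA per cell and more cells of an expressing type cannot be told apart.

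**Figure D2:**
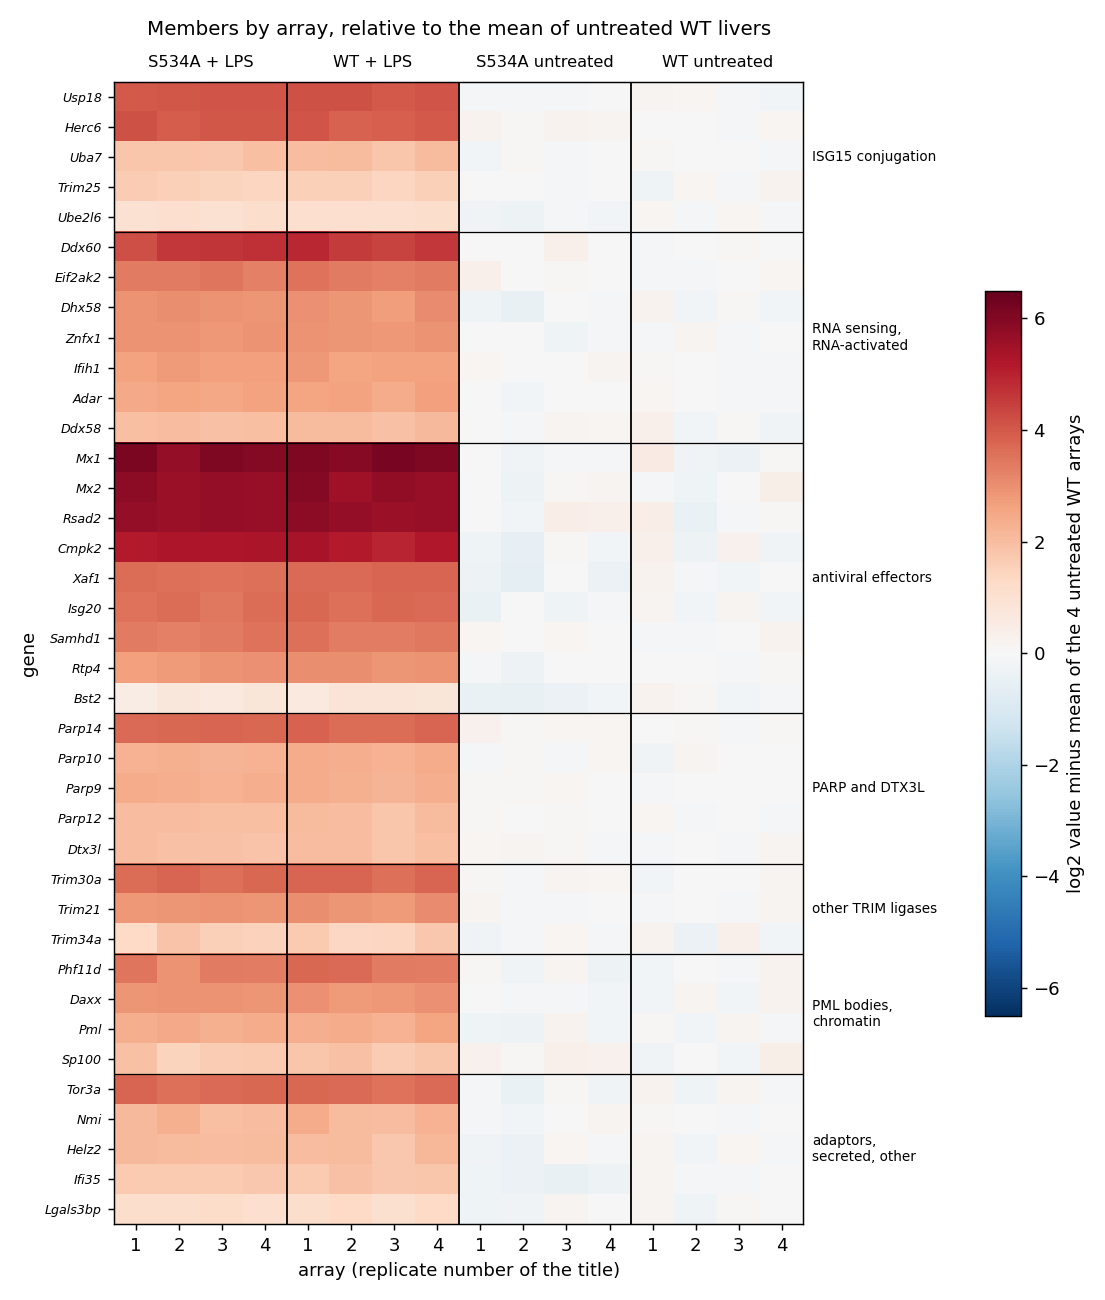
Deposited log2 value of each of the 38 genes (rows, grouped by role) in each of the 16 arrays (columns), minus the mean of the 4 untreated WT arrays. Every LPS-treated array is above the untreated arrays in every row, with Mx1, Mx2, Rsad2 and Cmpk2 darkest and Bst2, Ube2l6 and Lgals3bp palest, and the genotypes look alike within a treatment beside the change with LPS.

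The genes grouped as antiviral effectors held the largest rises. Mx1 and Mx2 are dynamin-like GTPases that trap viral nucleocapsids, and in most inbred laboratory strains, C57Bl/6 among them, the Mx1 gene carries a deletion that abolishes the activity of its protein. Only RNA was measured here, so the rise of Mx2 does not show that active Mx2 protein was made in these mice. Mx1 had values of 11.82, 11.43, 11.77 and 11.64 in LPS-treated S534A livers, against 5.69, 5.47, 5.63 and 5.62 in untreated S534A livers. In LPS-treated WT livers it had 11.74, 11.61, 11.85 and 11.75, against 6.21, 5.49, 5.34 and 5.76 in untreated WT livers. Its untreated values differed most among WT arrays, where array 1 was high and array 3 low, and no LPS-treated array came near them. The rise was 6.06 ± 0.14 in S534A (66.9-fold) and 6.04 ± 0.14 in WT (65.8-fold). For Mx2 the values were 11.55, 11.33, 11.46 and 11.38 with LPS and 5.71, 5.39, 5.79 and 5.92 without treatment in S534A livers. The WT values were 11.67, 11.26, 11.51 and 11.41 with LPS and 5.65, 5.43, 5.71 and 6.11 without. Array 1 was the highest of the LPS-treated arrays in both genotypes, and the rises were 5.73 ± 0.13 in S534A and 5.74 ± 0.13 in WT. Every untreated value of Mx1 and of Mx2 was below the array medians of 6.25 to 6.42, so the size of their rises rests on low untreated values. Rsad2 encodes viperin, a radical SAM enzyme that makes a chain-terminating nucleotide, and stood at 13.61, 13.48, 13.63 and 13.55 in LPS-treated S534A livers, against 7.86, 7.74, 8.35 and 8.20 in untreated ones. WT livers gave 13.71, 13.61, 13.51 and 13.55 after LPS, against 8.33, 7.47, 7.81 and 7.97 untreated. The LPS-treated arrays of both genotypes lay within a narrow band while the untreated ones were scattered, and the rises were 5.53 ± 0.15 in S534A and 5.70 ± 0.15 in WT. Cmpk2, a mitochondrial nucleotide kinase whose gene neighbours Rsad2 on chromosome 12, rose by 5.46 ± 0.15 in S534A and 5.17 ± 0.15 in WT.

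The other effectors rose less. Xaf1, a binding partner of the apoptosis inhibitor XIAP, had values of 10.79, 10.77, 10.70 and 10.76 in LPS-treated S534A livers, against 6.84, 6.55, 7.22 and 6.78 in untreated ones. The WT values were 10.84, 10.88, 10.95 and 10.98 after LPS, against 7.41, 7.10, 7.01 and 7.20 without it. Every LPS-treated S534A array was below every LPS-treated WT array, and the rises were 3.90 ± 0.11 in S534A and 3.73 ± 0.11 in WT. Isg20 rose by 3.77 ± 0.10 in S534A and 3.67 ± 0.10 in WT. The deoxynucleotide hydrolase Samhd1, which starves reverse transcription, rose by 3.32 ± 0.09 in S534A and 3.41 ± 0.09 in WT, and Rtp4, a zinc-finger protein that restricts flaviviruses, by 2.95 ± 0.08 in S534A and 2.94 ± 0.08 in WT. Bst2 encodes tetherin, which holds budding virions at the cell surface and in the mouse also marks plasmacytoid dendritic cells. Its values were 11.33, 11.63, 11.48 and 11.66 in LPS-treated S534A livers, against 10.42, 10.41, 10.51 and 10.68 in untreated S534A livers. In WT livers they were 11.52, 11.72, 11.71 and 11.67 after LPS, against 11.11, 10.97, 10.67 and 10.72 without treatment. Bst2 had the smallest rise of the 38 genes in both genotypes, 1.02 ± 0.10 in S534A (2.02-fold) and 0.79 ± 0.10 in WT (1.73-fold), and the gap between the highest untreated and the lowest LPS-treated WT array was small.

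All 5 tested genes of ISG15 conjugation rose. Usp18, which strips ISG15 from proteins and blocks signalling at the interferon receptor, was the strongest, with 13.44, 13.48, 13.52 and 13.53 in LPS-treated S534A livers, against 9.32, 9.35, 9.30 and 9.40 in untreated ones. WT arrays gave 13.56, 13.58, 13.42 and 13.52 after LPS, against 9.61, 9.56, 9.36 and 9.24 without. The replicates were close together except in untreated WT livers, and the rises were 4.15 ± 0.08 in S534A and 4.08 ± 0.08 in WT. Herc6, the main ISG15 ligase of the mouse, had 12.50, 12.34, 12.40 and 12.39 after LPS and 8.62, 8.47, 8.59 and 8.54 without it in S534A livers. In WT livers Herc6 had 12.47, 12.21, 12.28 and 12.38 after LPS and 8.33, 8.38, 8.28 and 8.53 without it. Its rises of 3.85 ± 0.07 in S534A and 3.96 ± 0.07 in WT were near those of Usp18, and the genotypes overlapped under both conditions. The activating enzyme Uba7 had 9.28, 9.29, 9.24 and 9.46 in LPS-treated S534A livers, against 7.32, 7.57, 7.41 and 7.52 in untreated ones. Its WT values were 9.50, 9.53, 9.28 and 9.56 with LPS, against 7.56, 7.53, 7.44 and 7.39 without treatment. WT array 3 was the only LPS-treated WT array within the S534A range, and Uba7 rose by 1.86 ± 0.08 in S534A and 1.99 ± 0.08 in WT. The conjugating enzyme Ube2l6 rose by 1.25 ± 0.08 in S534A and 1.10 ± 0.08 in WT, and Trim25, a ubiquitin ligase that also promotes RIG-I signalling, by 1.54 ± 0.09 in S534A and 1.52 ± 0.09 in WT. Within this pathway Usp18 and Herc6 had the larger rises, and Uba7, Trim25 and Ube2l6 the smaller ones, in S534A as in WT; these differences between genes are ratios within each probe set and were not tested against one another.

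All 7 genes that sense or act on RNA rose. Ddx60, a DExD/H-box helicase, led them, with values of 10.47, 10.88, 10.94 and 11.03 in LPS-treated S534A livers and 6.33, 6.24, 6.61 and 6.26 in untreated ones. In WT livers the values were 11.18, 10.83, 10.69 and 10.88 after LPS and 6.13, 6.29, 6.37 and 6.33 without it. S534A array 1 was low and WT array 1 high among the LPS-treated arrays, and Ddx60 rose by 4.47 ± 0.12 in S534A and 4.61 ± 0.12 in WT. Eif2ak2 encodes PKR, the kinase that halts translation on binding double-stranded RNA, and gave 10.82, 10.83, 10.90 and 10.71 after LPS, against 7.78, 7.48, 7.52 and 7.45 untreated, in S534A livers. WT livers gave 10.97, 10.82, 10.69 and 10.81 after LPS, against 7.37, 7.31, 7.46 and 7.58 untreated. The LPS-treated arrays of the genotypes interleaved, and the rises were 3.26 ± 0.09 in S534A and 3.39 ± 0.09 in WT. Dhx58 encodes LGP2, a regulator of the RNA sensors, with 10.91, 11.02, 10.89 and 10.87 in LPS-treated S534A livers, against 7.72, 7.49, 7.94 and 7.85 in untreated ones. The WT values of Dhx58 were 10.96, 10.87, 10.69 and 11.03 with LPS, against 8.23, 7.81, 8.07 and 7.82 without. It rose by 3.17 ± 0.11 in S534A and 2.91 ± 0.11 in WT, and S534A array 2 was the lowest of all untreated arrays. The sensors themselves rose less: Ifih1 (MDA5) by 2.60 ± 0.07 in S534A and 2.64 ± 0.07 in WT, and Ddx58 (RIG-I) by 1.92 ± 0.10 in S534A and 2.03 ± 0.10 in WT. The viral RNA-binding helicase Znfx1 rose by 2.96 ± 0.08 in S534A and 2.88 ± 0.08 in WT, and Adar, which edits adenosine to inosine in double-stranded RNA, by 2.59 ± 0.07 in S534A and 2.56 ± 0.07 in WT.

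The 4 PARP genes and Dtx3l rose as well. Parp14, a mono-ADP-ribosyltransferase, had values of 12.25, 12.32, 12.39 and 12.35 after LPS and 8.85, 8.67, 8.74 and 8.74 without treatment in S534A livers. In WT livers the values were 12.45, 12.24, 12.22 and 12.37 after LPS and 8.54, 8.67, 8.51 and 8.66 without. Untreated S534A arrays all lay above the untreated WT arrays, by less than the rounding for the closest pair, while the LPS-treated ones interleaved, and the rises were 3.58 ± 0.07 in S534A and 3.72 ± 0.07 in WT. Parp10 had 10.23, 10.30, 10.16 and 10.23 in LPS-treated S534A livers, against 7.88, 8.03, 7.88 and 8.07 in untreated ones. WT arrays of Parp10 read 10.37, 10.30, 10.23 and 10.39 after LPS, against 7.75, 8.16, 8.001 and 7.92 without. It rose by 2.27 ± 0.08 in S534A and 2.36 ± 0.08 in WT, and the genotypes overlapped in both conditions. Dtx3l, a ubiquitin ligase, and Parp9, its partner in one complex, lie next to each other and to Parp14 on chromosome 16. Parp9 rose by 2.27 ± 0.06 in S534A and 2.32 ± 0.06 in WT, Dtx3l by 1.82 ± 0.08 in S534A and 1.95 ± 0.08 in WT, and Parp12 by 1.96 ± 0.07 in S534A and 1.99 ± 0.07 in WT.

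Ligases of the TRIM family and proteins of PML nuclear bodies followed. Trim30a, a mouse ligase that restrains NF-kB signalling downstream of Toll-like receptors, had 12.04, 12.19, 12.02 and 12.15 after LPS and 8.49, 8.34, 8.61 and 8.57 without it in S534A livers. WT livers had 12.18, 12.22, 12.00 and 12.20 after LPS and 8.25, 8.39, 8.47 and 8.57 without it. WT array 3 was the lowest of the LPS-treated arrays, and the rises were 3.60 ± 0.08 in S534A and 3.73 ± 0.08 in WT. Trim21, a cytosolic antibody receptor, gave 10.89, 10.95, 10.96 and 10.94 in LPS-treated S534A livers, against 8.24, 7.93, 7.91 and 8.02 in untreated ones. The corresponding WT values of Trim21 were 11.09, 10.93, 10.82 and 11.12, against 7.95, 8.06, 7.98 and 8.22. The S534A values after LPS fell inside the WT range, and the rises were 2.91 ± 0.09 in S534A and 2.93 ± 0.09 in WT. Trim34a rose by 1.63 ± 0.16 in S534A and 1.55 ± 0.16 in WT. Phf11d had 10.13, 9.58, 10.01 and 9.96 in LPS-treated S534A livers, against 6.70, 6.41, 6.79 and 6.31 in untreated ones. Its WT arrays read 10.37, 10.34, 10.01 and 9.98 after LPS, against 6.47, 6.68, 6.53 and 6.84 without. S534A array 2 was far below the rest of its LPS-treated group, WT arrays 1 and 2 were above the S534A range, and Phf11d rose by 3.36 ± 0.14 in S534A and 3.54 ± 0.14 in WT. Daxx, a histone chaperone of PML bodies, had 10.85, 10.93, 10.92 and 10.89 after LPS and 7.96, 7.90, 7.95 and 7.84 without in S534A livers. In WT livers Daxx had 10.97, 10.76, 10.81 and 10.97 after LPS and 7.81, 8.16, 7.81 and 8.21 without. The untreated WT arrays split into a low and a high pair that bracketed the S534A arrays, and the rises were 2.99 ± 0.09 in S534A and 2.88 ± 0.09 in WT. Sp100, another component of these bodies, had 10.14, 9.66, 9.87 and 9.95 in LPS-treated S534A livers, against 8.48, 8.28, 8.56 and 8.48 in untreated ones. For WT the Sp100 values were 10.05, 10.15, 9.90 and 10.02 after LPS, against 7.995, 8.25, 8.07 and 8.59 without. S534A array 2 was the lowest after LPS, and Sp100 rose by 1.45 ± 0.12 in S534A and 1.80 ± 0.12 in WT. Pml itself, the scaffold of the bodies, rose by 2.53 ± 0.12 in S534A and 2.40 ± 0.12 in WT.

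The remaining genes encode adaptors and secreted or other proteins. Tor3a, an ATPase of the torsin family, was the strongest of them, with 11.77, 11.58, 11.67 and 11.74 in LPS-treated S534A livers and 7.87, 7.55, 8.06 and 7.79 in untreated ones. WT livers had 11.75, 11.69, 11.51 and 11.69 after LPS and 8.22, 7.71, 8.16 and 7.92 without. The untreated arrays were more scattered than the LPS-treated ones in both genotypes, and Tor3a rose by 3.87 ± 0.11 in S534A and 3.66 ± 0.11 in WT. Nmi and Ifi35 form a complex that modulates innate signalling. Nmi stood at 10.49, 10.68, 10.31 and 10.40 after LPS, against 8.23, 8.21, 8.39 and 8.53 untreated, in S534A livers. It stood at 10.76, 10.45, 10.39 and 10.66 after LPS, against 8.46, 8.35, 8.27 and 8.41 untreated, in WT livers. The rises of Nmi were 2.13 ± 0.10 in S534A and 2.19 ± 0.10 in WT, with the genotypes overlapping throughout. Ifi35 had values of 10.78, 10.80, 10.79 and 10.84 in LPS-treated S534A livers, against 8.80, 8.68, 8.62 and 8.74 in untreated ones. Ifi35 in WT livers had 10.77, 10.97, 10.86 and 10.91 after LPS, against 9.28, 9.02, 8.96 and 9.08 without. All untreated S534A arrays were below all untreated WT arrays, and the rises were 2.09 ± 0.07 in S534A and 1.79 ± 0.07 in WT. Helz2, a helicase that coactivates PPAR receptors, rose by 2.21 ± 0.11 in S534A and 2.00 ± 0.11 in WT, and Lgals3bp, a secreted glycoprotein, by 1.22 ± 0.11 in S534A and 1.19 ± 0.11 in WT.

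**Figure D3:**
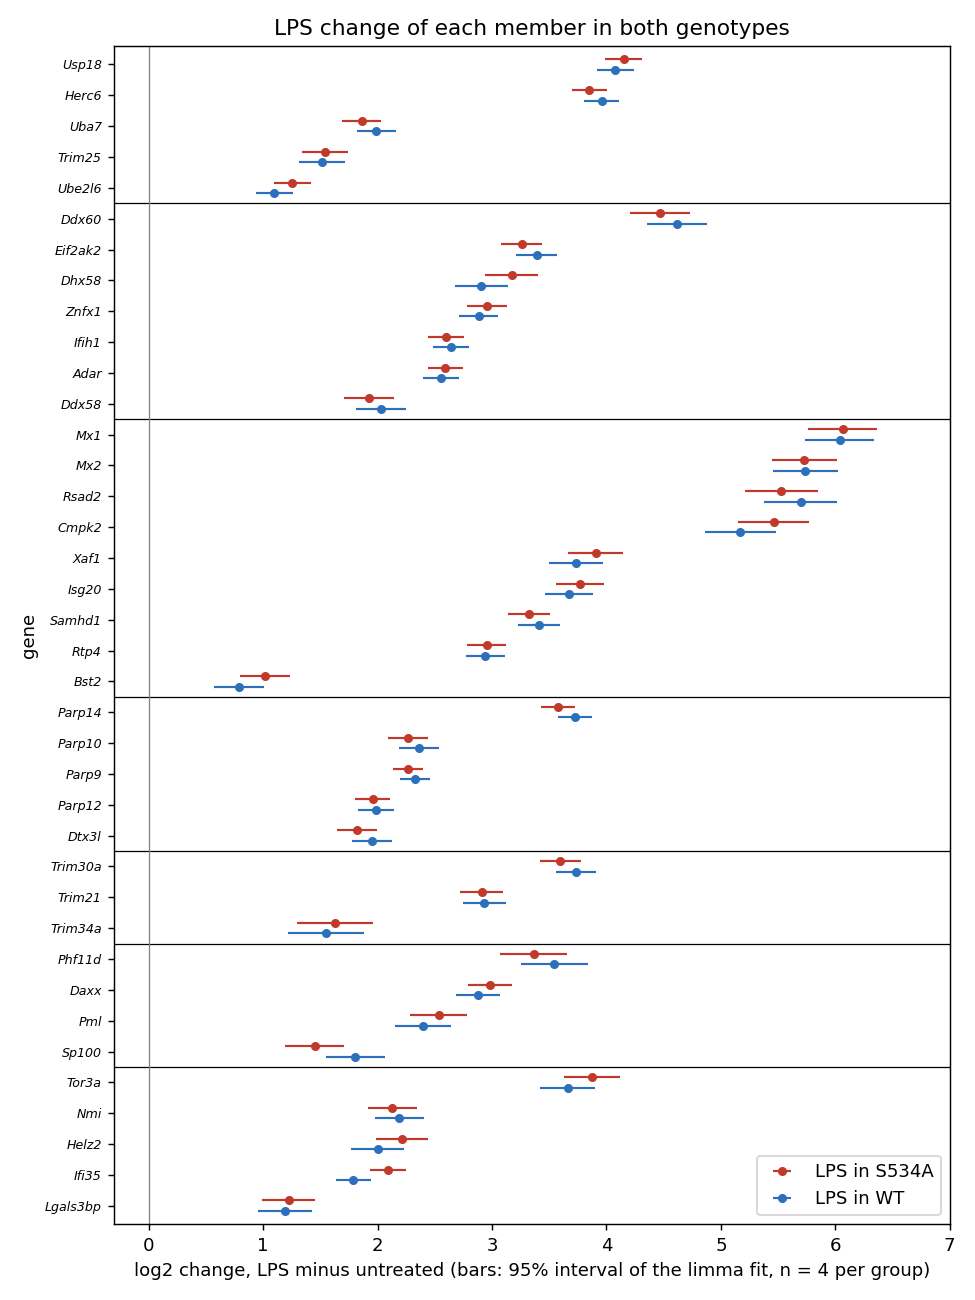
LPS change of each of the 38 genes in S534A livers (red) and WT livers (blue), as log2 differences with 95% intervals of the limma fit (n = 4 per group), grouped by role and ordered by size. All intervals lie to the right of 0, from Bst2 near 1 to Mx1 near 6, and the red and blue intervals overlap for every gene, least for Ifi35.

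The study's main question is whether the S534A substitution changed this response, and none of the 38 genes was called in any of the 3 comparisons that bear on it. After LPS the S534A minus WT difference ran from -0.26 to 0.07 with a median of -0.03, and 27 of 38 were below 0. The 0 calls by limma at an adjusted p under 0.05 compare with 0% of all genes, and 0 of the 38 had an unadjusted p under 0.05, against 3% of all genes. All 38 of the 95% intervals lay within a 1.5-fold difference either way. The lowest p belonged to Uba7 (-0.15 ± 0.08, 95% interval -0.32 to 0.02), Phf11d (-0.26 ± 0.14, -0.55 to 0.03) and Xaf1 (-0.16 ± 0.11, -0.40 to 0.08), each with a limma adjusted p of 1.00. Only for Xaf1 did the groups not overlap, with S534A lower, which held for 1.29% of all genes, while S534A was higher without overlap for 0.742%. The 6 genes that rose most differed by less than their standard errors: Mx1 by -0.07 ± 0.14, Mx2 by -0.03 ± 0.13, Rsad2 by -0.03 ± 0.15, Cmpk2 by 0.06 ± 0.15, Ddx60 by -0.06 ± 0.12 and Usp18 by -0.02 ± 0.08.

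The interaction, which is the S534A change with LPS less the WT change, ran from -0.35 to 0.30 over the 38 genes with a median of 0.00, and 19 were above and 19 below 0. None was called by limma, against 0% of all genes, and 1 had an unadjusted p under 0.05 (4.82% of all genes). That gene was Ifi35, whose rise was larger in S534A by 0.30 ± 0.10 (95% interval 0.08 to 0.52, limma adjusted p = 0.951). Its levels after LPS differed by -0.07 ± 0.07 and its untreated levels by -0.38 ± 0.07, so the larger rise went with lower untreated values. Sp100 followed at -0.35 ± 0.17 (-0.72 to 0.01) and stood at -0.12 without the 3 untreated arrays whose clock genes stood apart, and Dhx58 stood at 0.27 ± 0.15 (-0.06 to 0.59), or 0.17 without them. The value of Ifi35 without these arrays was 0.24. The 95% intervals were within 1.5-fold either way for 33 of 38 genes and within 2-fold for all 38. The 5 whose intervals reached past 1.5-fold were Sp100, Cmpk2, Rsad2, Dhx58 and Phf11d. For the 6 genes that rose most the interaction was 0.02 ± 0.20 for Mx1, -0.01 ± 0.19 for Mx2, -0.17 ± 0.21 for Rsad2, 0.29 ± 0.21 for Cmpk2, -0.14 ± 0.18 for Ddx60 and 0.07 ± 0.11 for Usp18.

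Without treatment the S534A minus WT difference ran from -0.38 to 0.23 with a median of -0.04, and 24 of 38 were below 0. No gene was called by limma, against 0.0126% of all genes. An unadjusted p under 0.05 was reached by 8 of the 38 (8.88% of all genes), of which Ifi35, Bst2, Xaf1, Ube2l6, Dhx58 and Isg20 were lower and Herc6 and Parp14 higher in S534A. Untreated WT arrays 1 and 3, whose clock genes stood apart, were the highest of their group for Ube2l6, Dhx58 and Isg20. For Herc6 and Parp14 they were the lowest of it. The part of clock phase in these differences was not tested. Ifi35 had the lowest p, at -0.38 ± 0.07 (95% interval -0.53 to -0.22, limma adjusted p = 0.117), followed by Bst2 at -0.36 ± 0.10 (-0.58 to -0.14, adjusted p = 0.259) and Xaf1 at -0.33 ± 0.11 (-0.57 to -0.09, adjusted p = 0.368). The groups did not overlap for Ifi35, lower in S534A, and for Parp14, higher in S534A, and the share of all genes for which they did not was 3.62% lower and 2.07% higher. Without the 3 untreated arrays whose clock genes stood apart, the differences were -0.31 for Ifi35 (adjusted p = 0.421), -0.34 for Bst2 (0.568) and -0.43 for Xaf1 (0.391). With array quality weights, which lower the influence of arrays that fit their group poorly, 2 members were called lower in S534A, Ifi35 at -0.37 ± 0.07 (limma adjusted p = 0.0261) and Ube2l6 at -0.27 ± 0.07 (adjusted p = 0.0472), while 2.33% of all genes were called in either direction under that setting. Ube2l6, chosen after its values were seen, had 10.55, 10.45, 10.62 and 10.59 in untreated S534A livers, against 10.88, 10.62, 10.90 and 10.63 in untreated WT livers. WT arrays 1, 3 and 4 were above every S534A array, array 4 narrowly, and WT array 2 lay inside the S534A range. Of these, WT arrays 1 and 3 are arrays whose clock genes stood apart, as is S534A array 3, the highest of its group. No member was called in this comparison without those 3 arrays, and the value of Ube2l6 without them is not given here.

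**Figure D4:**
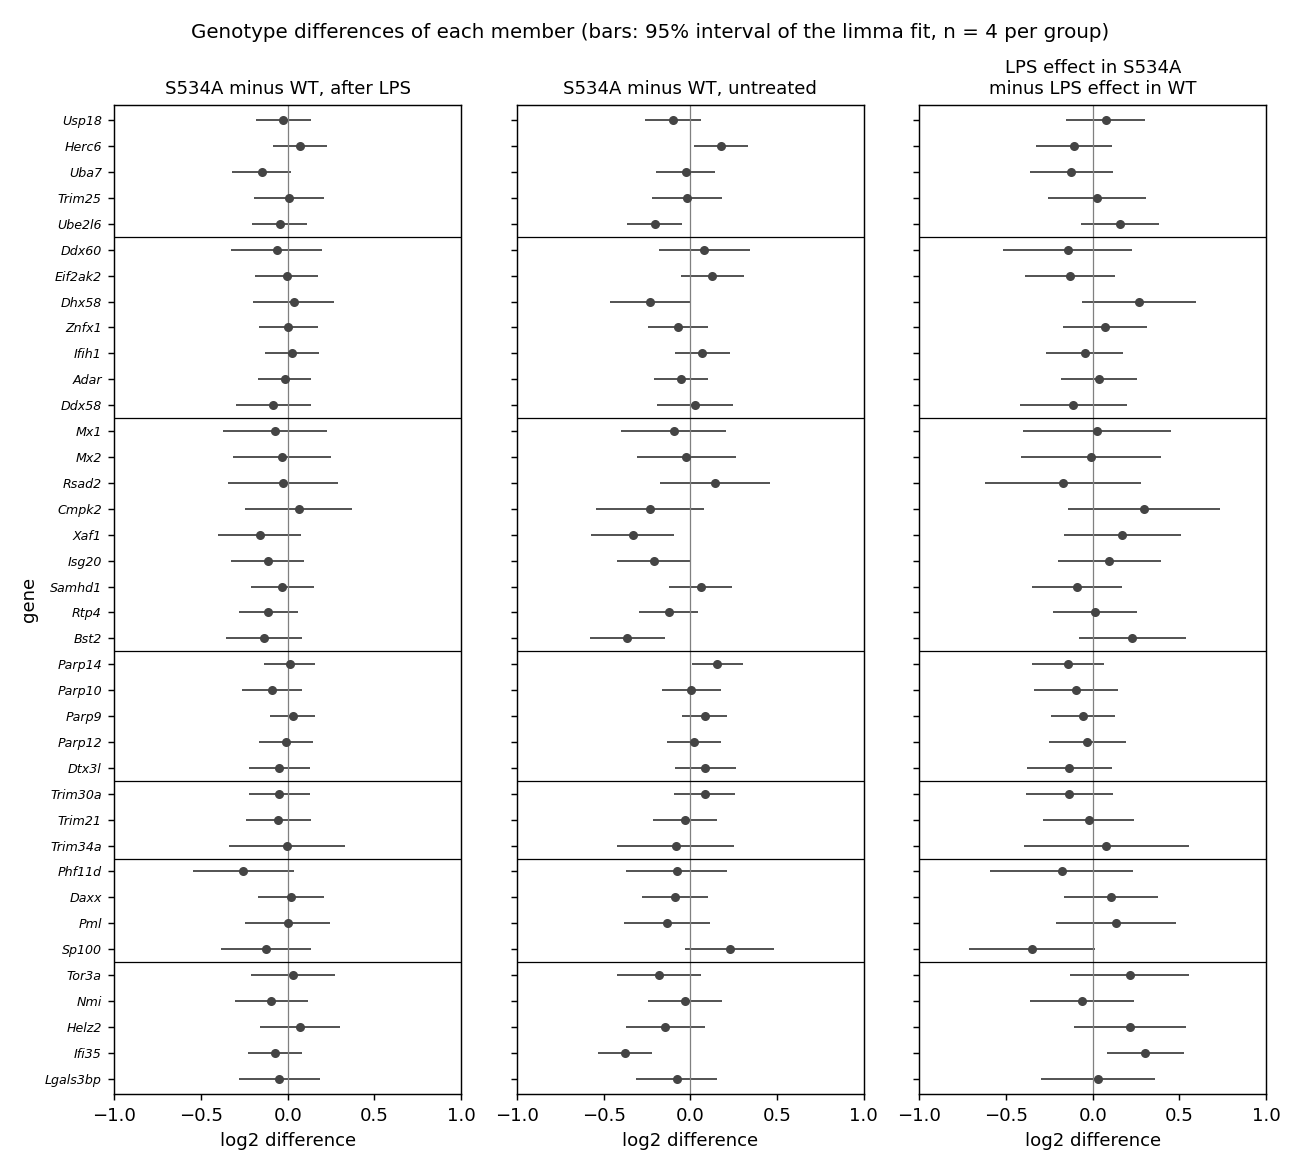
Genotype differences of each of the 38 genes in log2 units with 95% intervals of the limma fit (n = 4 per group): S534A minus WT after LPS (left), S534A minus WT untreated (middle) and the interaction (right). Points after LPS keep within 0.26 of 0, and in the untreated panel Ifi35, Bst2 and Xaf1 lie farthest to the left.

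For these 38 genes, whose values were higher after LPS, the spread between replicates was smaller after LPS than without it in each genotype. The spread of all genes was not computed, so whether this is particular to the 38 was not tested. The median standard deviation of the 38 genes was 0.0648 in LPS-treated S534A livers, 0.108 in LPS-treated WT livers, 0.126 in untreated S534A livers and 0.167 in untreated WT livers (n = 4 each). In some single arrays many of the genes lay to the same side of the group mean. LPS-treated WT array 3 was above the group mean for 6 of the 38 genes, against 45.4% of all genes. It lay 0.10 below that mean on average over the 38. Untreated S534A array 2 was above for 8 of the 38 (47.8% of all genes) and untreated S534A array 3 for 26 (53.1%). For untreated WT array 1 the count was 21 (54.5% of all genes). LPS-treated WT array 3 held the lowest of the 4 values for 25 genes and untreated S534A array 2 for 20. Untreated S534A array 3 and untreated WT array 1 held the highest for 18 each. The share of all genes was not computed for these counts of lowest and highest values. LPS-treated S534A arrays kept close to their group mean, with mean deviations between -0.01 and 0.02. Leaving out any single array changed none of the calls above.

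**Figure D5:**
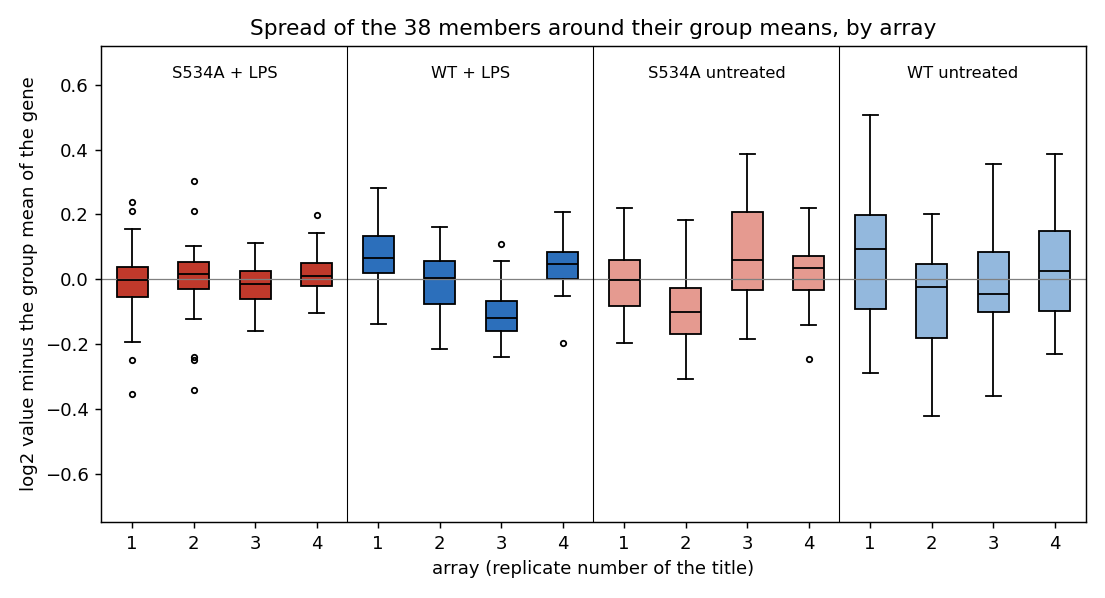
Log2 value of each of the 38 genes minus the mean of its group, by array (box: quartiles and median; whiskers: up to 1.5 times the box; circles: genes beyond them). The boxes of LPS-treated S534A arrays centre near 0, and those of LPS-treated WT array 3 and untreated S534A array 2 lie below it.

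Upstream of these genes, interferon signalling components moved in both directions. Of 28 genes listed as interferon ligands, receptors, kinases, factors and regulators, 23 were tested. After LPS 13 of the 23 rose and 5 fell in S534A livers, and 12 rose and 4 fell in WT livers, where the share of all genes called lower was 31.2% in S534A and 29.9% in WT. The feedback inhibitor Socs1 rose by 2.24 ± 0.09 in S534A and 2.14 ± 0.09 in WT, the kinase Tbk1, which activates Irf3, by 2.19 ± 0.09 in S534A and 2.29 ± 0.09 in WT, and Irf7, which amplifies interferon production, by 2.76 ± 0.13 in S534A and 2.53 ± 0.13 in WT. The ISRE-binding partners Stat2 (1.76 ± 0.10 in S534A and 1.76 ± 0.10 in WT) and Irf9 (1.34 ± 0.07 in S534A and 1.15 ± 0.07 in WT) rose too, as did Jak2 (1.60 ± 0.11 in S534A and 1.89 ± 0.11 in WT). The components that fell are named after their values were seen. Mavs, the mitochondrial adaptor of the RNA sensors, changed by -1.57 ± 0.15 in S534A and -1.52 ± 0.15 in WT, and Irf3 by -0.33 ± 0.07 in S534A and -0.39 ± 0.07 in WT. Tyk2 changed by -0.24 ± 0.09 in S534A and -0.25 ± 0.09 in WT and the interferon gamma receptor chain Ifngr1 by -0.51 ± 0.13 in S534A and -0.34 ± 0.13 in WT, all called in both. Ifnar1, a chain of the type I receptor, changed by -0.27 ± 0.08 in S534A and -0.18 ± 0.08 in WT and was called in S534A (limma adjusted p = 0.0104) and not in WT (0.0837); the interaction was -0.09 ± 0.11 (adjusted p = 0.964). Other receptor and kinase genes did not fall, and these too are named after their values were seen. Ifngr2, a chain of the interferon gamma receptor, rose by 0.49 ± 0.09 in S534A and 0.57 ± 0.09 in WT. Jak1 rose by 0.30 ± 0.06 in S534A and 0.52 ± 0.06 in WT, and both genes were called in both genotypes. Ifnar2 changed by 0.04 ± 0.07 in S534A and 0.06 ± 0.07 in WT and was called in neither. Of the ligands, 2 were tested. Ifng changed by 0.40 ± 0.09 in S534A (limma adjusted p = 0.00120) and by 0.17 ± 0.09 in WT (adjusted p = 0.146), and the difference of these effects was not called (0.24 ± 0.13, adjusted p = 0.951). Ifna2 changed by -0.17 ± 0.14 in S534A and -0.16 ± 0.14 in WT and passed in neither. Interferon beta was not analysed here.

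Markers of immune cells moved with the same LPS comparisons, and their part in the results was not tested. Beside the counts below, 14.2% of all genes were called higher and 31.2% lower in S534A, and 14.9% higher and 29.9% lower in WT. All 10 neutrophil markers rose in both genotypes, and the mean of their log2 values per array was 7.35 to 7.75 in LPS-treated S534A livers, 7.27 to 8.02 in LPS-treated WT livers, 5.67 to 5.80 in untreated S534A livers and 5.66 to 5.72 in untreated WT livers. Of 10 Kupffer cell markers 8 fell and 1 rose in each genotype, with means of 8.001 to 8.39 in LPS-treated S534A livers, 8.27 to 8.64 in LPS-treated WT livers, 8.93 to 9.41 in untreated S534A livers and 9.21 to 9.63 in untreated WT livers. Of 10 sinusoidal endothelial markers 8 fell and 2 rose in each genotype, with means of 8.26 to 8.58 in LPS-treated S534A livers, 8.36 to 8.75 in LPS-treated WT livers, 9.59 to 9.77 in untreated S534A livers and 9.58 to 9.77 in untreated WT livers. Of 6 monocyte markers 2 were tested, and 1 rose and 1 fell in each genotype. Of 6 listed plasmacytoid dendritic cell markers 4 were tested, and 1 rose, Tcf4. Siglech changed by 0.12 ± 0.10 in S534A and 0.06 ± 0.10 in WT and did not pass. Its group means of 6.01 to 6.31 were low, beside array medians of 6.25 to 6.42. Of 8 listed T and NK cell markers 4 were tested, and none passed. Of 6 listed B cell markers 4 were tested, and 3 fell in each genotype. The B cell means were 5.87 to 5.95 in LPS-treated S534A livers and 5.89 to 6.02 in LPS-treated WT livers. They were 6.32 to 6.52 in untreated S534A livers and 6.36 to 6.47 in untreated WT livers. Of 10 listed hepatocyte markers 8 were tested, and their mean log2 value ran from 13.44 to 13.65 over all arrays. Among the 8 tested, 0 passed in S534A and 2 rose in WT. No array value is at 0 on this scale, so no marker can be called absent.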

How the data were processed

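Liver RNA of 16 samples was hybridised to 1-colour whole-transcript arrays after amplification and biotin labelling, per the labels' protocols. The deposited values are log2 expression values per probe set, summarised with RMA per the submitters' processing notes, so background correction and quantile normalization precede them. The scanner's own signals were not used here, so signal over background is unknown, and precision is limited by the number of arrays. The median standard error was 0.0991 for an LPS change and 0.140 for the interaction, in log2 units.

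Of 35556 probe sets, 21789 carry 1 gene symbol and 1621 several, and only the first kind was named. A probe set was kept if 4 or more of the 16 arrays had it over their own 30th percentile, and the kept probe set with the highest mean stood for its gene, leaving 15908 genes. RefSeq (GRCm38.p6) held the gene of 21698 of the probe sets with 1 symbol, and 0 symbols were updated through it. All genes were fitted in limma 3.58.1 (R 4.3.3) with 4 group means, empirical Bayes moderation and Benjamini-Hochberg adjustment over all genes, and a gene was called at an adjusted p under 0.05. Figures and motif searches were made in Python 3.11.15 with matplotlib 3.10.9.

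The members and lists were chosen with earlier results of these data known. Values in every array are given for the 2 or 3 genes of largest LPS change in each role, and for the 3 genes of lowest p in each genotype comparison and in the interaction. Equal replicate numbers in the titles come with no statement of pairing. Deviations from the group means of same-numbered arrays correlated at -0.49 to 0.59 over 24 pairs, so the numbers were not taken to pair the samples. Alternatives changed the filter, the normalization, the probe sets of a gene, the variance prior, array weights, the block, the threshold and the arrays in the fit. The alternative without 3 untreated arrays was chosen from the clock gene values of these same arrays.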

Additional observations from a re-analysis of the deposited data

Results flagged for a closer look

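Each of the 38 genes was looked at in each of the 4 groups for an array whose gap to its nearest neighbour exceeded Dixon's 95% critical share of the range of the 4 arrays. Of 152 such groups 3 held one (1.97%), where chance gives about 1 in 20. Ifih1 stood at 12.28 in LPS-treated WT array 1, while the other arrays of that group ran from 12.02 to 12.06 (gap ratio 0.836). Znfx1 stood at 11.73 in LPS-treated S534A array 3, with the others between 11.83 and 11.84 (gap ratio 0.940). Trim30a stood at 12.00 in LPS-treated WT array 3, with the others between 12.18 and 12.22 (gap ratio 0.8295), and that array was the lowest of its group for 25 of the 38 genes. The deviations were small beside the LPS change of each gene, and leaving out the array ended no call.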

How the results depend on the processing

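All 38 genes were higher after LPS in both genotypes under each of the 29 alternatives, 16 of which left out 1 array. Each gene has 1 probe set and a stricter threshold adds no call, so settings that cannot change a value were left out of the next count. That count takes all 38 genes for the LPS changes, but only the 3 of lowest p in each genotype comparison and the interaction. Most of it is thus LPS changes, whose limma adjusted p was at most 0.000239 under any alternative. Ube2l6 is not among the genotype values counted. Of 2274 other values of single genes, 2273 kept their direction and their side of the threshold. The exception was Ifi35 in untreated livers with array weights, where 2 members, Ifi35 and Ube2l6, were called lower in S534A instead of 0; the number of genes called in that comparison over all genes was 370 with weights and 2 without, and the cause was not tested. Over the alternatives the S534A minus WT difference of Ifi35 in untreated livers ran from -0.42 to -0.31 with limma adjusted p from 0.0261 to 0.469, that of Bst2 from -0.43 to -0.28 and that of Xaf1 from -0.46 to -0.23. The interaction ran from 0.24 to 0.35 for Ifi35, from 0.17 to 0.33 for Dhx58 and from -0.47 to -0.12 for Sp100, and the values nearest 0 came from leaving out the 3 untreated arrays whose clock genes stood apart. With the replicate number as a block, 38 members were called after LPS in each genotype and 0 in the genotype comparisons and the interaction, and Ifi35 in untreated livers had -0.38 (limma adjusted p = 0.247). Among arrays of the other groups, 6 of 16 arrays correlated best with one of their own number, where number alone gives 4 of 16, so this check of the pairing settles little. With arrays centred on their medians, all genes together had a median change of -0.13 in S534A and -0.16 in WT, and Bst2 then rose by 0.92 in S534A and 0.69 in WT, still called in both. For the interaction, which needs all 4 groups, a fit of only the groups compared is the fit reported and gives no other value.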

Other observations

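The 3 untreated arrays with a clock score below 0 were compared with the other 5 for all 38 genes, after their values were seen. They held the 3 highest values for 7 genes (Dhx58, Cmpk2, Trim34a, Pml, Lgals3bp, Tor3a and Helz2) and the 3 lowest for 1, Trim25, and the ranges overlapped for the other 30. The same count over all genes was not made, so these numbers cannot be read as particular to these genes. Trim25 had 9.91 in S534A array 3 and 9.69 and 9.89 in WT arrays 1 and 3, and 9.95 to 10.22 in the other 5. Pml, the scaffold of PML nuclear bodies, had 8.94 in S534A array 3 and 8.79 and 8.87 in WT arrays 1 and 3, and 8.33 to 8.60 in the other 5 untreated arrays. Cmpk2 had 7.51 in S534A array 3 and 7.76 and 7.69 in WT arrays 1 and 3, and 6.91 to 7.25 in the other 5 untreated arrays. Tor3a had 8.06 in S534A array 3 and 8.22 and 8.16 in WT arrays 1 and 3, and 7.55 to 7.92 in the other 5 untreated arrays. The part of clock phase in these values was not tested. In LPS-treated livers Cmpk2 lay between 12.38 and 12.77 over the 8 arrays, Tor3a between 11.51 and 11.77 and Pml between 10.93 and 11.24.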
